A study of Homo sapiens with 42 samples.

Results

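The siRNA siE8 against POLR3GL was set against a control siRNA in HEK293T, a human embryonic kidney line, with 3 libraries of each, 6 of the 42 libraries of the series. The members are the libraries whose labels give the siE8 or the control siRNA at 25 nM and 48 h. The same experiment holds 3 libraries with each of another pair of POLR3GL siRNAs, siE4 and siE6, also at 25 nM and 48 h, so that siE8 can be set against siRNAs to the same target without using a control library. All 12 libraries are polyadenylated RNA of cells transfected with Lipofectamine RNAiMax, and no group is untransfected. The labels give neither the sequences of these siRNAs nor whether the 3 libraries of a group came from separate cultures, so the spread behind each p-value is that between these libraries and may be technical.

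RNA polymerase III (Pol III) makes tRNAs, 5S rRNA and other short noncoding RNAs. Its subunit RPC7 has paralogous forms encoded by POLR3GL, which is found in most cell types, and POLR3G, which is high in stem and tumour cells. RPC7 sits with RPC3 (POLR3C) and RPC6 (POLR3F) in a subcomplex that acts in promoter opening, and MAF1 represses Pol III. An siRNA guides Argonaute to a matching transcript, which is cut, and the first bases of the guide (the seed) can also pair with 3′ UTRs of other transcripts and lower them.

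The 7 bases GCTATCT are shown first, because many of the results below are read beside them. Of the 12939 words of 7 bases compared (of 16384 possible), this one had the lowest difference in median log2 fold change (siE8 against control). The difference is that between genes with and without the word in the 3′ UTR, as given below. The words ranked 2 and 3 are not present in POLR3GL transcripts, whereas this word is, as 1 of the 992 compared words found there. The lines show it in capitals, 5′ to 3′ in the transcript (GENCODE release 29, GRCh38), with 8 bases on each side, for POLR3GL, for the other named genes with a large fall whose 3′ UTR holds it, and for the coding sequence of HSP90AB1, an abundant chaperone that fell.
POLR3GL: tcacctttGCTATCTtggggaaa
REEP3 site 1: ttactgatGCTATCTttattgtt
REEP3 site 2: tgtaaaagGCTATCTctaagcct
NCEH1: atgagatcGCTATCTgtaagtcc
GPC6 site 1: gcattttaGCTATCTgaatggcc
GPC6 site 2: ttccttcaGCTATCTgtggggac
ZC3HAV1L: tggcagctGCTATCTgcagctcc
CHPT1: gaacacttGCTATCTcttgctgc
HSP90AB1: accgccctGCTATCTtctggctt
The POLR3GL word lies at chr1:145978637-145978643 on the plus strand, in the 3′ UTR in exon 8 of the 8 exons of POLR3GL-202. Those of REEP3 lie at chr10:63621501-63621507 and chr10:63624490-63624496 (plus strand, 3′ UTR, exon 8 of 8), and that of NCEH1 at chr3:172632869-172632875 (minus strand, 3′ UTR, exon 5 of 5). GPC6 holds the word at chr13:94403252-94403258 and chr13:94403419-94403425 (plus strand, 3′ UTR, exon 9 of 9). ZC3HAV1L holds it at chr7:139026389-139026395 (minus strand, 3′ UTR, exon 5 of 5), CHPT1 at chr12:101728964-101728970 (plus strand, 3′ UTR, exon 9 of 9) and HSP90AB1 at chr6:44253302-44253308 (plus strand, coding, exon 11 of 12).

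Depth was even: the 6 libraries held 37393877 to 42454177 estimated reads. Mitochondrial DNA genes took 2.75% to 4.995% of the gene reads in the control libraries and 3.48% to 4.409% with siE8. In a principal component analysis of the 12 libraries, the siE8 libraries lay at -36.81 to -31.56 on the second component (34.2% of the variance) and the other groups at 1.82 to 16.84. All 12 HEK293 lineage markers were measured, while markers of THP-1 and monocytes, the other line of the series, summed to 4.19 to 4.88 CPM in the 6 libraries, with AIF1, ELANE, MPO and PTPRC at 0, and lymphoid markers to 1.96 to 3.75 CPM. CPM is a gene's read count scaled to the size of its library, and fold changes are log2 ± SE from the quasi-likelihood test of edgeR over the 12 libraries, adjusted after Benjamini and Hochberg across the 15573 genes in the fit, where an adjusted p under 0.05 is a call.

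POLR3GL (ENSG00000121851, chromosome 1, 145964702 to 145978848, plus strand) stood at 32.6, 36.4 and 33.4 CPM in the control libraries and at 2.54, 2.84 and 2.45 CPM with siE8. The lowest control library lay far above the highest siE8 library, and the level fell 13.1-fold (log2 -3.71 ± 0.14, adjusted p = 1.46e-10). In bulk RNA, a loss in all cells and fewer cells that hold the transcript cannot be told apart. Its main coding transcript, POLR3GL-202, was at 28.06 to 31.97 TPM in the control libraries and 2.169 to 2.369 TPM with siE8. The shorter coding form POLR3GL-201 was at 3.345 to 4.355 TPM in the control libraries, and with siE8 it was listed at 0 in 2 libraries and at 0.1403 TPM in the other. The siE4 libraries held 3.37, 2.88 and 2.43 CPM of POLR3GL and the siE6 libraries 3.37, 2.74 and 3.97 CPM. Against siE4 the difference was log2 -0.14 ± 0.15 (adjusted p = 0.409). Against siE6 it was log2 -0.36 ± 0.14 (adjusted p = 0.0401), a call that was lost in a fit of only the 6 libraries compared (adjusted p = 0.076), with the replicate block (0.0602) and when siE8 replicate 1 (0.094), siE8 replicate 3 (0.12), siE6 replicate 1 (0.085) or siE6 replicate 3 (0.193) was left out.

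POLR3G, the paralog, was at 29.6, 31.4 and 33.7 CPM in the control libraries and at 17.1, 17.1 and 15.4 CPM with siE8. The groups did not overlap, and POLR3G fell 1.91-fold (log2 -0.93 ± 0.08, adjusted p = 4.05e-07). Its main transcript, POLR3G-204, went from between 11.63 and 14.18 TPM to between 5.712 and 6.589 TPM, while the transcript POLR3G-207 was at 5.777 to 7.444 TPM in the control libraries and 5.961 to 7.672 TPM with siE8, which overlap. With an offset for each gene's average transcript length, which moves when transcripts shift against each other, the fall of POLR3G was log2 -0.57 (adjusted p = 0.000129). None of the 31-base words of the coding POLR3GL transcripts (1162) was among the 3985 of the coding POLR3G transcripts. POLR3G transcripts do not hold GCTATCT. They do hold other words that overlap it and ranked 4, 8 and 10 from the lowest for siE8 against control. The differences in median for those words were -0.33, -0.222 and -0.199, and their part in the fall of POLR3G was not tested. POLR3G was at 19.0, 15.9 and 17.8 CPM with siE4 and at 20.2, 23.3 and 20.7 CPM with siE6. The difference from siE4 was log2 -0.09 ± 0.081 (adjusted p = 0.375) and turned to 0.198 (adjusted p = 0.0771) with the length offset. The difference from siE6 was log2 -0.37 ± 0.08 (adjusted p = 0.00121), and it was lost with the length offset (log2 -0.07, adjusted p = 0.532).

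MAF1 was at 57.2, 67.8 and 60.9 CPM in the control libraries and at 63.2, 68.0 and 64.8 CPM with siE8. These ranges overlap, and the difference was log2 0.08 ± 0.056 (adjusted p = 0.261). Without control replicate 2, the highest of the control libraries, MAF1 was called higher (log2 0.147, adjusted p = 0.0221). The plot of levels by library sets the target beside its paralog and MAF1.

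**Figure D1:**
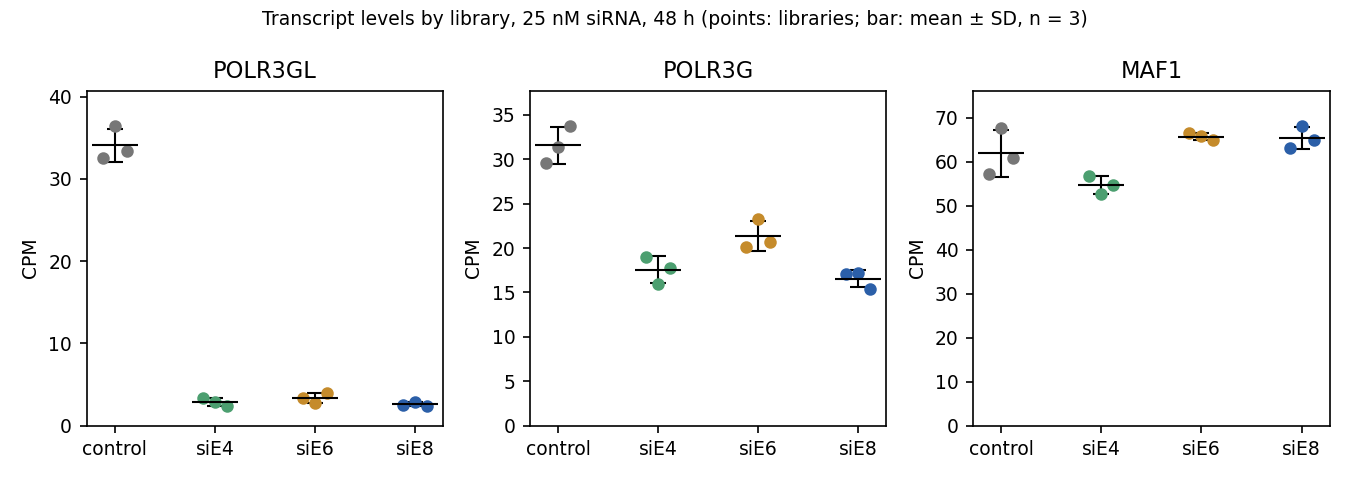
Levels of POLR3GL, POLR3G and MAF1 in CPM in the 12 libraries of the 25 nM experiment, with points for libraries and bars for mean ± SD (n = 3). POLR3GL is at 2.45 to 2.84 CPM with siE8 and at 32.6 to 36.4 CPM in the control libraries, POLR3G is lower with each of the siRNAs against POLR3GL, and MAF1 overlaps between siE8 and control.

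Over all genes, siE8 changed 8985 of the 15573 tested (57.7%), 4530 higher (29.1%) and 4455 lower (28.6%), around a median log2 fold change of -0.009. Large changes were more often falls: 809 called genes fell and 389 rose by more than 2-fold. Against a null of at most a 1.5-fold change, 1637 genes were called, 570 higher and 1067 lower. The 3 siE8 libraries lay wholly above the 3 control libraries for 30.4% of genes and wholly below for 30.3%, 60.6% together. Among the 11188 genes at 5 CPM or more over the 6 libraries, 68.4% were called, 36.4% higher and 32.0% lower. Direct comparisons with the other POLR3GL siRNAs called 9806 against siE4 (63.0%) and 9999 against siE6 (64.2%). Genes called higher with siE8 than with control, siE4 and siE6 alike numbered 1852 (11.9%), and those called lower numbered 1893 (12.2%).

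Beside POLR3GL, REEP3 had the largest fall among the genes named by rule. REEP3, which clears endoplasmic reticulum from chromosomes in mitosis, was at 92.6, 89.6 and 98.4 CPM in the control libraries and at 12.4, 9.54 and 11.2 CPM with siE8 (8.44-fold, log2 -3.08 ± 0.072, adjusted p = 5.95e-12). It stood at 137 to 145 CPM with siE4 and 85.4 to 88.8 CPM with siE6, so that the siE8 libraries are low against all 9 others. NCEH1, a cholesterol ester hydrolase, fell from 29.1, 29.7 and 29.7 CPM to 5.32, 5.20 and 4.73 CPM (log2 -2.54), with 15.3 to 16.6 CPM in the siE4 and 22.3 to 23.6 CPM in the siE6 libraries. The glypican GPC6, a cell-surface heparan sulfate proteoglycan, fell from 78.7, 82.1 and 81.9 CPM to 16.2, 12.7 and 13 CPM (log2 -2.53) and was at 25.7 to 31.2 CPM with siE6. ZC3HAV1L, a relative of the zinc-finger antiviral protein, fell from between 18.2 and 19.9 CPM to between 3.02 and 4.15 CPM (log2 -2.44), with siE4 at 14.9 to 15.9 CPM and siE6 at 23.5 to 27.2 CPM. CHPT1, which makes phosphatidylcholine, fell from between 104 and 107 CPM to between 18.6 and 20.5 CPM (log2 -2.43), with siE4 at 68.9 to 72.6 CPM and siE6 at 80.9 to 81.3 CPM. These 5 genes and POLR3GL are the 6 of the 12 named falls whose 3′ UTR holds GCTATCT, 2 more hold it only in the coding sequence (ACSL4 and MYO5A), and 4 hold it in neither.

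The 4 without it are NBEA, UNC5C, GPM6A and NR6A1. UNC5C, a netrin receptor, fell from between 23.8 and 24.5 CPM to between 3.22 and 4.37 CPM (log2 -2.69) and was nearly as low with siE6 (4.12 to 5.12 CPM) but not with siE4 (34.2 to 35 CPM). GPM6A, a neuronal membrane glycoprotein, fell from between 29.3 and 30.3 CPM to between 5.08 and 5.72 CPM (log2 -2.49), with siE6 at 8.79 to 11.6 CPM. NR6A1, an orphan nuclear receptor, fell from between 78.8 and 82.9 CPM to between 13 and 16.6 CPM (log2 -2.46) and was at 16.5 to 18.3 CPM with siE4. NBEA, a vesicle-trafficking protein of neurons, was at 1.14, 3.04 and 0.532 CPM with siE8 against 9.51 to 11.3 CPM in the control libraries (log2 -2.78 ± 0.43), and its fall was log2 -1.24 with the length offset. The siE6 libraries held 1.94 to 4.71 CPM of NBEA. Against control, UNC5C, GPM6A and NBEA were lower with siE6 (log2 -2.40, -1.61 and -1.66) but not with siE4. NR6A1 was lower with both (log2 -2.22 with siE4, -0.58 with siE6). Of the genes with the word in the 3′ UTR, POLR3GL, NCEH1 and CHPT1 were lower with both and GPC6 with siE6 only. REEP3 was higher with siE4 (log2 0.59) and within the spread with siE6 (log2 -0.11, adjusted p = 0.136). ZC3HAV1L was lower with siE4 (log2 -0.30) and higher with siE6 (log2 0.43).

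Among the rises, SYP, which encodes the synaptic vesicle protein synaptophysin, went from 6.96, 8.44 and 8.26 CPM to 65.3, 69.1 and 71.4 CPM (8.7-fold, log2 3.12 ± 0.088, adjusted p = 1.96e-11). SYP stood at 9.80 to 12.5 CPM with siE4 and 13.7 to 14.6 CPM with siE6. The potassium channel gene KCNC1 rose from between 1.06 and 1.28 CPM to between 8.90 and 9.42 CPM (log2 2.98), and BSN, a presynaptic scaffold, from between 2.21 and 2.79 CPM to between 12.1 and 14.2 CPM (log2 2.42). RAB39A, a small GTPase (log2 2.39), MAPK8IP2, a JNK scaffold enriched in brain (2.29), STMN3, a stathmin of neurons (2.13), and CPLX1, a complexin that binds the vesicle fusion machinery (2.06), rose as well. TMEM198 rose by log2 2.40 and TMEFF1 by 2.17. CALU, an endoplasmic reticulum calcium-binding protein, rose from between 142 and 150 CPM to between 584 and 626 CPM (log2 2.02), and BOD1, which acts in chromosome alignment, from between 34.7 and 37.2 CPM to between 151 and 162 CPM (log2 2.14). Both were also high with siE4 (CALU 408 to 427 CPM, BOD1 70.9 to 76.1 CPM) and siE6 (CALU 261 to 279 CPM, BOD1 126 to 130 CPM). The rise of CSRNP3 (5.61, 6.66 and 16.9 CPM against 1.19 to 2.39 CPM) was lost with the length offset (log2 0.20, adjusted p = 0.729). None of the 10 named rises whose 3′ UTR was read holds GCTATCT, which is present in 5.35% of all genes read, so that a count of 0 in 10 is near the share over all genes. The heat map of these genes shows which changes siE8 shared with the other siRNAs.

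**Figure D2:**
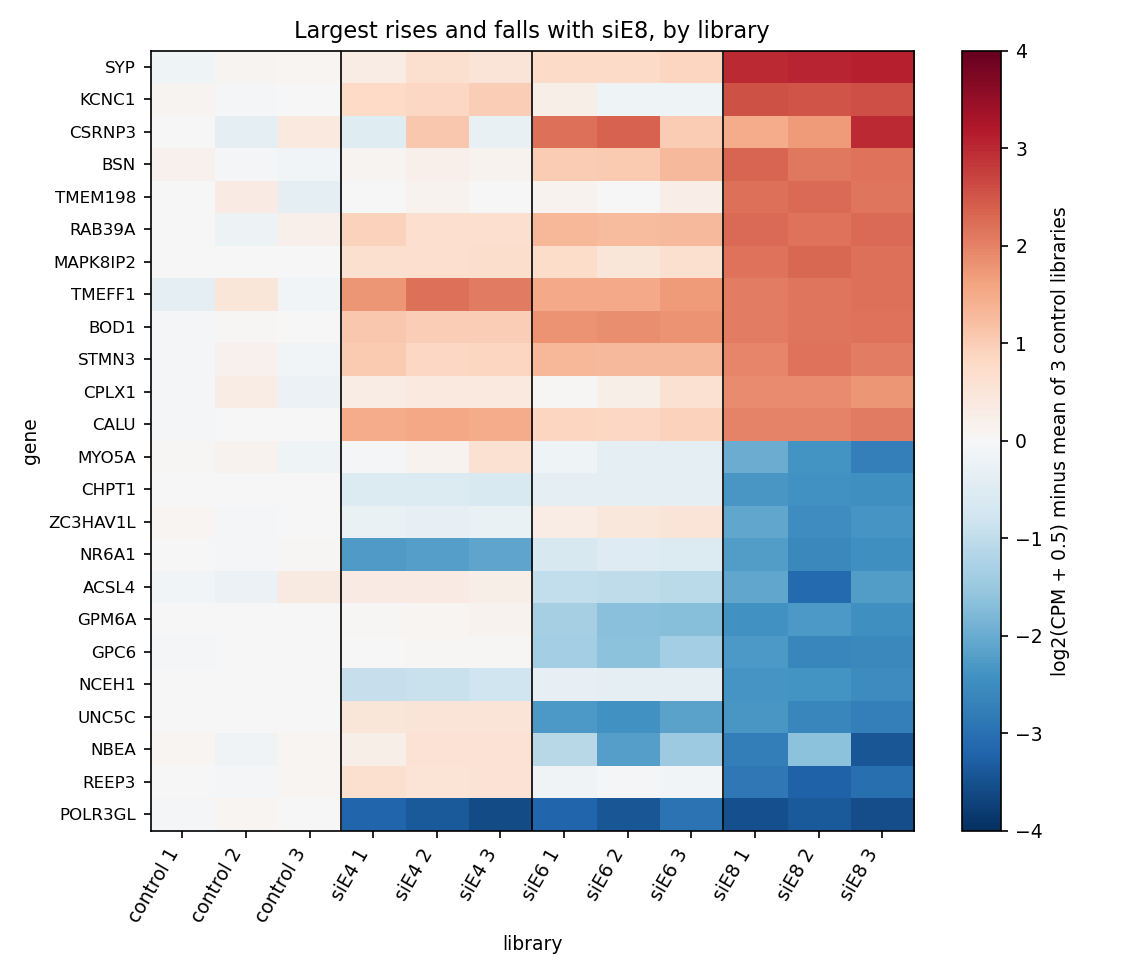
The 12 largest rises (top) and 12 largest falls (bottom) with siE8 among the genes named by rule, in rows, in the 12 libraries, in columns; colour is log2(CPM + 0.5) minus the mean of the control libraries. SYP, KCNC1, TMEM198 and REEP3 stand apart in the siE8 columns, although SYP is also higher with siE4 and siE6 and KCNC1 with siE4. POLR3GL, BOD1, CALU and TMEFF1 move the same way with siE4 and siE6.

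The word GCTATCT was found by comparing, for each of 12939 words of 7 bases, the median log2 fold change of genes whose 3′ UTR holds the word with that of genes whose 3′ UTR does not. The comparison covered 10455 genes that averaged 5 CPM or more with a 3′ UTR of at least 50 bases, and words present in at least 200 genes. Genes with GCTATCT (559) had a median 0.549 lower than genes without it, whereas the median difference over all words was -0.048, the lowest 1% lay at or below -0.113 and the highest difference was 0.132. The next lowest words, CTATCTA (-0.406), AGCTATC (-0.337) and TGCTATC (-0.33), overlap it. Against siE4 and against siE6, GCTATCT also ranked lowest (-0.559 and -0.467), in comparisons that share the siE8 libraries from which it was chosen. With siE4 against control its difference was 0.038 and with siE6 against control -0.084. Library by library, set against the control mean, the difference was -0.489, -0.571 and -0.563 in the siE8 libraries, 0.034 to 0.064 with siE4, -0.08 to -0.068 with siE6 and -0.036 to 0.023 in the control libraries. The siE8 libraries are the 3 lowest of the 12 with no overlap. The word was chosen from these same siE8 and control libraries, so neither this separation nor the counts by word below are independent of that choice. This is a description with no test, and whether siE8 pairs with these sites was not tested, since no sequence of siE8 was used here.

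Of the 559 genes with the word, 404 were called lower (72.3%) and 63 higher (11.3%), with a median of -0.508, against 30.5% lower and 38.2% higher of the 9896 genes without it, whose median was 0.041. These shares are of genes whose 3′ UTR was read, of which 5.35% held a copy there. The 3′ UTR was read for 432 of the 809 genes that fell more than 2-fold, and 146 of the 432 (33.8%) held a copy. It was read for 171 of the 389 that rose more than 2-fold, and 6 of the 171 (3.51%) held a copy. The median was -0.492 for the 521 genes with 1 copy and -0.721 for the 38 with 2 or more. Genes with the word only in the coding sequence (457) had a median of -0.293 and genes with it in neither (9439) one of 0.055. Among genes with 1 copy, the 101 in which an A followed the word had the lowest median (-0.806), against -0.384 with C, -0.469 with G and -0.459 with T. Genes with 1 copy have longer 3′ UTRs (median 2745 bases) than genes without the word (988 bases), and the 1556 genes without it whose 3′ UTR was at least as long as the median of genes with a copy had a median of 0.007.

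**Figure D3:**
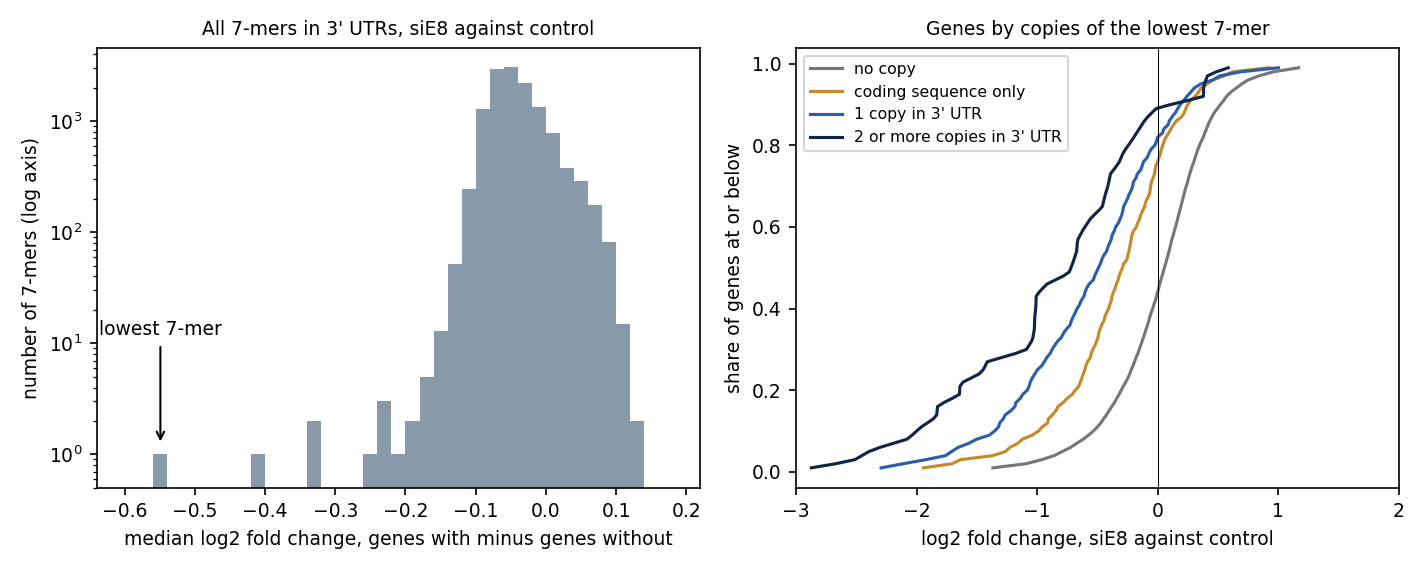
Left, the number of 7-base words (log axis) by the difference in median log2 fold change (siE8 against control) between genes with and without the word in the 3′ UTR, with the lowest word marked at -0.549. Right, the share of genes at or below each log2 fold change for genes with no copy of that word, with a copy in the coding sequence only, with 1 copy and with 2 or more copies in the 3′ UTR, whose medians are 0.055, -0.293, -0.492 and -0.721.

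Gene lists were described by how many tested members were called in each direction, to be read against 29.1% higher and 28.6% lower over all genes. For the direct comparisons counted below, the shares over all genes were 32.4% higher and 30.5% lower than with siE4, and 32.1% in each direction against siE6. Against a null of at most 1.5-fold, 1 of the 14 Pol III subunits called higher kept its call. So did 3 of 32 DNA replication genes and 10 of 16 neuronal genes called higher, and 15 of 36 matrix genes called lower. A call lost under this null does not place the change below 1.5-fold. Members named beyond the rule given with the processing were chosen after their values were seen. Of the 18 Pol III subunits, 14 rose, 3 fell and POLR2L (log2 0.14 ± 0.082, adjusted p = 0.171) did not pass, with a median of 0.245. The falls were POLR3GL, POLR3G and POLR3B, which encodes the second-largest subunit and went from between 58.1 and 63.9 CPM to between 41.4 and 47.7 CPM (log2 -0.44 ± 0.052, adjusted p = 8.58e-06). POLR3F, the RPC6 partner of RPC7, had the largest rise of the subunits, from 17.8, 18.2 and 19.0 CPM to 34.4, 38.5 and 34.0 CPM (log2 0.96 ± 0.065, adjusted p = 4.71e-08). POLR3F was at 31.8 to 36.6 CPM with siE4 and 35.3 to 38.3 CPM with siE6, and siE8 did not differ beyond the spread from either (adjusted p = 0.557 and 0.430). POLR3C, the RPC3 partner, rose from between 29 and 32.3 CPM to between 36.2 and 49.2 CPM (log2 0.50 ± 0.1, adjusted p = 0.000834). POLR3D, an RPC4 subunit of the initiation and termination subcomplex, rose from between 48.4 and 52.9 CPM to between 73.8 and 80.1 CPM (log2 0.59 ± 0.048) and was higher than with siE4 (log2 0.92) and siE6 (log2 0.67). The catalytic subunit POLR3A rose by log2 0.23 ± 0.043. Directly, 10 subunits were higher than with siE4 and 2 lower (median 0.165), and 5 higher than with siE6 and 8 lower (median -0.123). The subunit median of siE6 against control was 0.316.

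Of 20 initiation factors and regulators of Pol III tested, 11 rose and 4 fell (median 0.227). The falls were those of GTF3C2 and GTF3C3, which encode parts of the tRNA promoter-binding factor TFIIIC, TBP, the TATA-binding protein, and SNAPC3, which acts at the U6 promoter. GTF3C2 went from 106, 109 and 111 CPM to 55.7, 56.7 and 56.9 CPM (log2 -0.94 ± 0.033, adjusted p = 9.68e-11) and stayed at 106 to 120 CPM with siE4 and siE6. TBP was at 27.9 to 29.1 CPM in the control libraries, 18.6 to 19.4 CPM with siE8 and 43.1 to 47.3 CPM with siE4 and siE6, so siE8 lay below control (log2 -0.57 ± 0.046) and the others above it. BRF1, a subunit of TFIIIB, rose by log2 0.31 ± 0.042, and LARP4, which binds poly(A) tails, rose from between 90.9 and 106 CPM to between 217 and 218 CPM (log2 1.14 ± 0.046). BDP1 was listed at 0 in all 6 libraries. Transcripts that Pol III itself makes were left out.

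Of 33 genes of tRNA processing, modification and export, 17 rose and 6 fell (median 0.186). Directly, 18 of them were higher than with siE4 and 3 lower (median 0.142), and 9 higher than with siE6 and 14 lower (median -0.065). The median of this list for siE6 against control was 0.296. Of 20 cytosolic tRNA synthetases, which load tRNAs with amino acids, 10 rose and 3 fell (median 0.114). RTCB, the tRNA splicing ligase, rose from between 98.1 and 105 CPM to between 187 and 210 CPM (log2 0.97 ± 0.051), with siE6 at 195 to 209 CPM. GARS1, the glycine enzyme, rose from 285, 305 and 313 CPM to 476, 545 and 514 CPM (log2 0.77 ± 0.057). GARS1 was at 244 to 271 CPM with siE4 and 246 to 263 CPM with siE6, below all siE8 libraries. The synthetases were higher with siE8 than with siE4 for 16 of 20 and lower for 0, and higher than with siE6 for 14 and lower for 2.

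The ATF4 targets of the integrated stress response, which include amino acid synthesis and transport genes, were evenly split against control, with 10 of 31 higher and 10 lower (median 0.017). Directly against siE4, 26 of the 31 were higher with siE8 and 1 lower (median 0.74), and against siE6 likewise 26 were higher and 1 lower (median 0.62). The list's median against control was -0.755 with siE4 and -0.515 with siE6, in comparisons that share the control libraries. PSAT1, of serine synthesis, stood at 611 to 684 CPM in the control libraries and 527 to 641 CPM with siE8, but at 134 to 147 CPM with siE4 and 334 to 354 CPM with siE6. SLC7A5, an amino acid transporter, was at 205 to 224 CPM with control, 295 to 338 CPM with siE8, 60.5 to 64.0 CPM with siE4 and 160 to 175 CPM with siE6. The stress-induced factor DDIT3 was at 30.3 to 34.3 CPM with control and 29.3 to 33.7 CPM with siE8, and at 14.3 to 16.3 CPM with siE4 and 11 to 12.9 CPM with siE6. ATF4 itself rose from 22.6, 15.8 and 17 CPM to 33.8, 35.4 and 34.9 CPM (log2 0.91 ± 0.13, adjusted p = 5.25e-05). The list did not move as a block, since CHAC1, which degrades glutathione, fell from 26.5, 31.2 and 27.8 CPM to 8.31, 10.3 and 9.36 CPM (log2 -1.61 ± 0.11) and CEBPG rose from between 141 and 166 CPM to between 232 and 261 CPM (log2 0.68 ± 0.056).

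Cytosolic ribosomal protein genes showed the reverse order. Of 77 tested, 12 rose and 10 fell against control (median -0.013), and 21 rose without control replicate 2. Against siE4, 2 were higher and 64 lower with siE8 (median -0.271), and against siE6, 2 higher and 66 lower (median -0.306). RPL10, a large-subunit protein, was at 1148 to 1279 CPM with siE8, below the 9 other libraries (log2 -0.52 ± 0.072 against control), and RPL34 rose from between 198 and 217 CPM to between 289 and 311 CPM (log2 0.57 ± 0.053). Ribosomal protein genes have many near-identical pseudogene copies, so their values are less certain than others. Of the 13 protein genes of mitochondrial DNA, 1 was called higher and 1 lower against control (median 0.054), 11 were lower than with siE4 (median -0.631) and 11 lower than with siE6 (median -0.536), with 0 higher in both. The share of mitochondrial reads was 3.48% to 4.409% with siE8, 5.482% to 6.198% with siE4 and 4.372% to 6.223% with siE6. That share includes the reads of these same 13 genes, so it is not a separate measure. The plot of members in the 3 comparisons shows these lists beside the others.

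**Figure D4:**
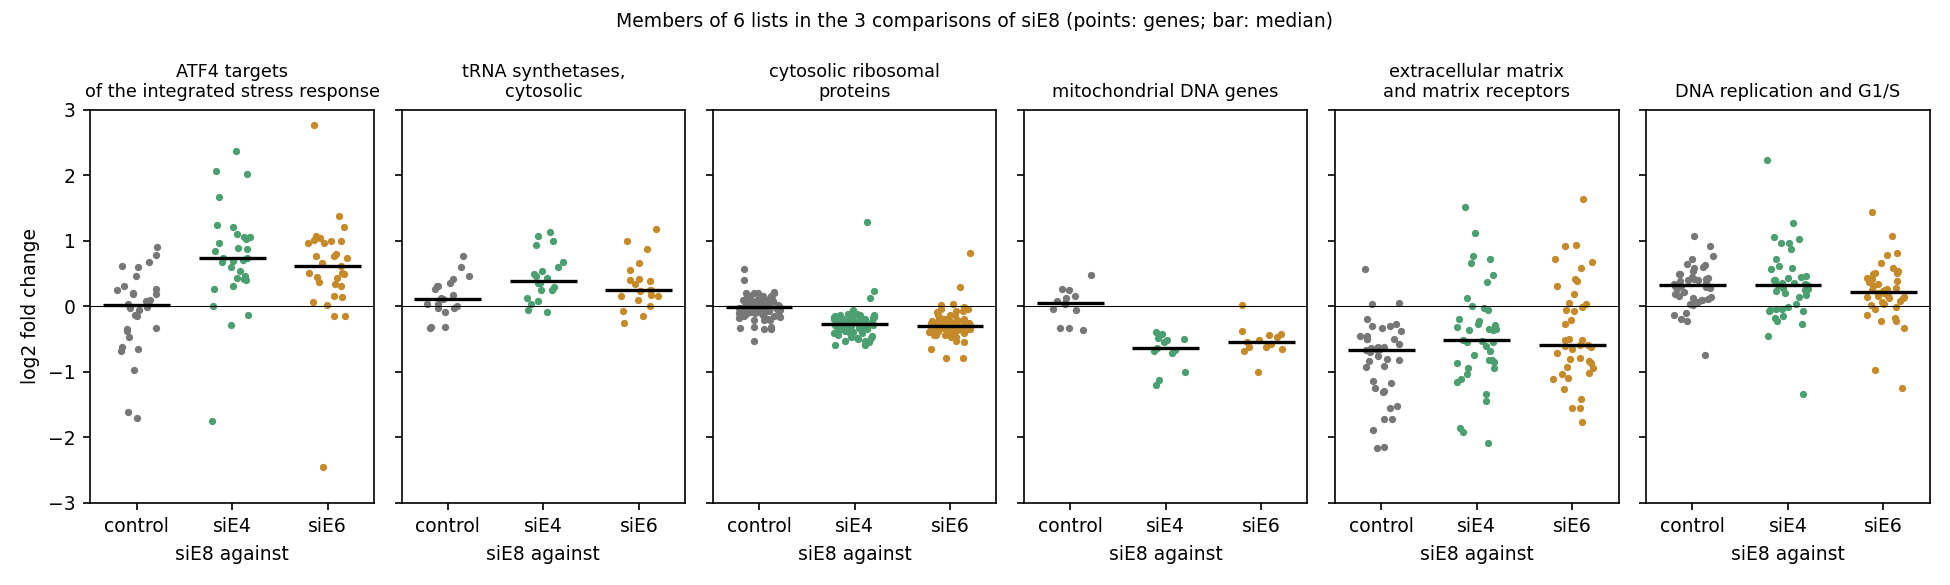
Log2 fold change of each tested member of 6 lists for siE8 against control, siE4 and siE6, with the median as a bar. ATF4 targets have medians of 0.017, 0.74 and 0.62, ribosomal protein genes of -0.013, -0.271 and -0.306, and extracellular matrix genes of -0.662, -0.511 and -0.583.

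Extracellular matrix genes fell together. Of 41 tested, 36 fell and 1, the collagen cross-linking enzyme LOX, rose (median -0.662), whereas COL1A1, MMP14, THBS1 and TNC did not pass. Basement membrane genes were among the falls: LAMC1, a laminin chain, went from 632, 578 and 545 CPM to 219, 185 and 198 CPM (log2 -1.54 ± 0.075, adjusted p = 1.91e-09), and the collagen IV genes COL4A1 and COL4A2 fell by 0.92 ± 0.075 and 0.80 ± 0.068 on the log2 scale. Among receptors, the integrin ITGB1 fell from 427, 425 and 408 CPM to 193, 184 and 195 CPM (log2 -1.14 ± 0.044) and ITGA6 from 81.3, 80.5 and 88.8 CPM to 25.2, 26.5 and 24.2 CPM (log2 -1.72 ± 0.067). The protease inhibitor TIMP3 fell from between 79.1 and 86.4 CPM to between 27.8 and 29.9 CPM (log2 -1.51 ± 0.054). All 3 of ITGB1, ITGA6 and TIMP3 were also lower than with siE4 and siE6 in every library. Over the list, 28 members were lower than with siE4 and 7 higher, and 26 lower than with siE6 and 8 higher. Among the 32 members whose 3′ UTR was read without GCTATCT, 31 fell and 1 rose (median -0.683), and 2 members hold the word. Markers of fibroblasts, which also make matrix, summed to 57.92 to 62.84 CPM in the control libraries and 41.16 to 44.25 CPM with siE8, with DPT at 0, and their part in the result was not tested.

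YAP and TEAD genes, the effectors and targets of the Hippo pathway, fell more often than they rose (18 lower and 7 higher of 27, median -0.348). The cofactor YAP1 was at 133, 131 and 152 CPM with control and 84.7, 86.1 and 84.1 CPM with siE8 (log2 -0.71 ± 0.052), and its DNA-binding partner TEAD1 fell from between 95.5 and 110 CPM to between 47.7 and 55.8 CPM (log2 -1.0 ± 0.062). The target CCN1 fell by 0.66 ± 0.094 on the log2 scale and CCN2 by 0.82 ± 0.14. WWTR1, the paralog of YAP1, rose from between 23.0 and 25.6 CPM to between 70.1 and 71.6 CPM (log2 1.55 ± 0.044) and was higher still with siE4 (78.8 to 79.9 CPM) and siE6 (92.6 to 98.7 CPM). Among the 17 members whose 3′ UTR was read without GCTATCT, 9 fell and 7 rose (median -0.214), and 3 hold it there. TEAD1 holds the word in its coding sequence.

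Genes of DNA replication and the G1/S transition rose in 32 of 42 cases and fell in 2 (median 0.321). E2F1, a transcription factor of S-phase entry, rose from 37.8, 42.1 and 36.9 CPM to 71.1, 75.8 and 74.7 CPM (log2 0.92 ± 0.053, adjusted p = 9.15e-09). The clamp loader gene RFC4 rose from between 96.7 and 100 CPM to between 159 and 164 CPM (log2 0.72 ± 0.032), MCM6 of the replicative helicase by log2 0.61 ± 0.049 and the sliding clamp PCNA by log2 0.49 ± 0.051. The falls were those of GINS1 (log2 -0.75 ± 0.055), of the helicase complex, and POLA2 (log2 -0.20 ± 0.057), of DNA polymerase alpha. Directly, 29 members were higher than with siE4 and 6 lower, with the same counts against siE6. Replication-dependent histone genes rose in 15 of 25 cases and fell in 0 (median 0.791), among them H4C14, from 10.1, 13.4 and 10.8 CPM to 32.9, 35.8 and 33.4 CPM (log2 1.57 ± 0.14). Directly, 11 histone genes were higher than with siE4 and 0 lower (median 0.423), and 6 higher than with siE6 and 1 lower (median 0.033). The histone median of siE6 against control was 0.433. With a minimum mean of 5 CPM, 6 histone genes were called higher, histone mRNAs mostly lack poly(A) tails, and their near-identical copies make single values uncertain. Of 38 genes of G2/M and mitosis, 24 rose and 7 fell (median 0.282). Directly, 16 of these were higher than with siE4 and 13 lower (median 0.024), and 24 higher than with siE6 and 7 lower (median 0.294). The G2/M median of siE4 against control was 0.259. KIF20A, a kinesin of cytokinesis, rose by log2 0.70 ± 0.037, whereas ANLN, the contractile ring protein anillin, whose 3′ UTR holds GCTATCT, fell from 235, 221 and 236 CPM to 91.5, 90.3 and 91.1 CPM (log2 -1.34 ± 0.036).

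In the list of neuronal genes, which also holds their repressor REST and its cofactors RCOR1 and RCOR2, 16 of 33 were higher and 9 lower (median 0.266). REST and RCOR1 are 2 of the 9. Besides SYP and STMN3 above, UNC13A, a vesicle-priming protein, rose from 0.765, 1.09 and 1.46 CPM to 6.80, 6.20 and 6.14 CPM (log2 2.53 ± 0.19), and CHGB, a granin, from 0.271, 0.338 and 0.126 CPM to 1.98, 2.47 and 2.55 CPM (log2 3.24 ± 0.29). SYN1, a vesicle phosphoprotein, rose from between 0.222 and 0.39 CPM to between 1.27 and 1.87 CPM (log2 2.37 ± 0.29). These levels are low, and with a minimum mean of 5 CPM 6 members were called higher. REST, the repressor that keeps neuronal genes silent outside neurons, fell from 98.0, 89.1 and 102 CPM to 47.1, 38.0 and 49.0 CPM (log2 -1.11 ± 0.089, adjusted p = 2.2e-07), and its cofactor RCOR1 fell from 64.2, 61.9 and 69.2 CPM to 41.6, 40.6 and 39.7 CPM (log2 -0.68 ± 0.045). REST was at 102 to 111 CPM with siE4 and 75.2 to 86.6 CPM with siE6, so that the siE8 libraries are the lowest 3 of the 12. The neurofilament gene NEFL fell by 0.75 ± 0.067 on the log2 scale. Of the 33 members tested, 11 were called higher than with control, siE4 and siE6 alike and 3 lower (REST, RCOR1 and CHGA), against 11.9% and 12.2% of all genes. The 3′ UTR was read for 13 members, of which 5 rose and 5 fell (median 0.001), and none of the 13 holds GCTATCT, near the 5.35% over all genes read.

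Chaperones and translation factors held some of the sharpest single changes. Of 17 heat shock and cytosolic chaperone genes, 10 rose and 2 fell (median 0.235). HSP90AB1, the constitutive cytosolic HSP90, fell from 1938, 2080 and 2118 CPM to 544, 540 and 524 CPM (3.82-fold, log2 -1.93 ± 0.049, adjusted p = 9.07e-12), with 1863 to 2448 CPM in the siE4 and siE6 libraries. HSP90AA1, the inducible form, rose from 1409, 1392 and 1528 CPM to 3264, 3600 and 3544 CPM (log2 1.27 ± 0.055) and stood at 2704 to 3154 CPM with siE4 and siE6. The genes are close paralogs with pseudogenes, so reads shared between them could have been divided differently. Of 42 translation factors, 17 rose and 11 fell (median 0.095). EIF3B rose from between 167 and 172 CPM to between 416 and 446 CPM (log2 1.34 ± 0.038), with siE6 at 404 to 423 CPM and siE4 at 140 to 147 CPM, and EIF4H, a helicase cofactor with GCTATCT in its coding sequence, fell from between 471 and 550 CPM to between 213 and 227 CPM (log2 -1.22 ± 0.056).

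**Figure D5:**
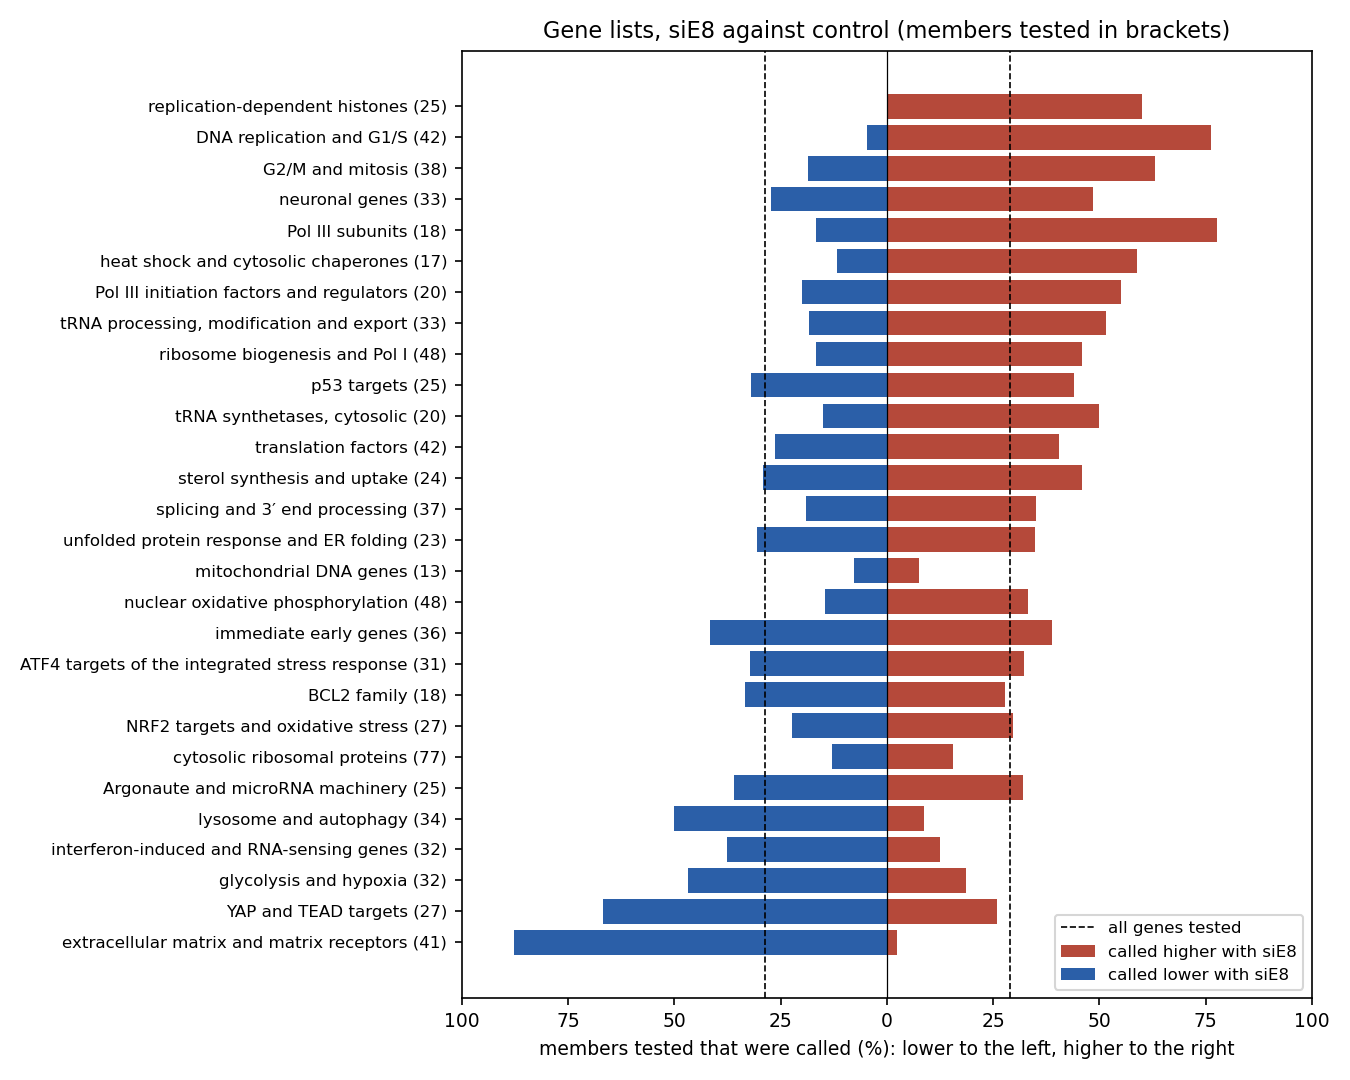
Share of tested members called higher (right) and lower (left) with siE8 against control for 28 gene lists, ordered by their median log2 fold change, with dashed lines at the shares over all genes (29.1% higher and 28.6% lower). Histone and DNA replication genes are at the top, with 15 and 32 members higher, and matrix genes at the bottom, with 36 lower.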

How the data were processed

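Per the file headers, the authors deposited an estimated count and a TPM value for each of 194142 transcripts in each library. The submitters' processing notes name bcl2fastq 2.20, Trim Galore, Salmon, DESeq2 and the build hg38, without an order. Other versions and the annotation were not stated in the sources used here. Salmon divides reads of similar transcripts by estimation.

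Identifiers were matched without their version to GENCODE release 29 (158359 transcripts, 81.6%), then estimated counts were added up by gene and rounded to whole numbers. Unmatched transcripts held 8.062% to 8.592% of the 37393877 to 52568088 reads of a library and entered no test, so a gene whose main transcript is unmatched can be listed at 0. The fit over the 12 libraries was the quasi-likelihood F-test of edgeR 4.0.16 (R 4.3.3), after filterByExpr and TMM scaling. TPM was used for single transcripts and, with the counts, for the length offset.

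Members and the 32 gene lists were chosen with earlier results of these data known. The rule names POLR3GL, POLR3G, MAF1, the 12 largest rises and 12 largest falls (mean of at least 5 CPM, no overlap, no library at 0), up to 3 called members of each list by adjusted p, and the 6 largest rises and falls called against control, siE4 and siE6 alike. The fit was tested on simulated data with known changes. Alternatives were DESeq2 1.42.0, its size factors, other filters, thresholds and sets of libraries, a length offset, a replicate block and each library left out. Other steps ran in Python 3.11.15 (pandas 2.3.3, numpy 2.4.6, plots with matplotlib 3.10.9).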

Additional observations from a re-analysis of the deposited data

How the results depend on the processing

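Against a 1.5-fold change, 1637 genes were called for siE8 against control, 570 higher and 1067 lower. The other alternatives left these counts within 1.5 times. With 1 library left out, 8191 to 8844 genes were called against control (4123 to 4495 higher, 4033 to 4349 lower), 9086 to 9600 against siE4 and 9330 to 9757 against siE6, and the GCTATCT difference was -0.592 to -0.536, -0.603 to -0.538 and -0.508 to -0.452 in these comparisons. The length offset moved that difference against siE4 to -0.487 and turned POLR3G against siE4 to 0.198. MAF1 against siE6 (-0.01) turned to 0.00331 with the length offset, 0.0165 without siE8 replicate 1 and 0.00711 without siE6 replicate 1, over a range of -0.0377 to 0.0165 with 1 library left out, and did not pass in any of these.

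The labels do not say whether the replicate numbers pair the samples, and the correlations do not settle it. Deviations of same-numbered siE8 and control libraries correlated at 0.24, 0.264 and 0.025, and those of differently numbered ones at -0.274 to 0.042. Same-numbered libraries correlated at -0.153 to -0.071 for siE8 and siE4 and at 0.08 to 0.211 for siE8 and siE6. With the replicate number as a block, 8850 genes were called against control and 9687 against siE4. Of the named genes, NBEA (adjusted p = 0.0572) and POLR3GL (0.0602) lost their call against siE6 under the block.

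Limits: siE8 is 1 siRNA at 1 dose and 1 time, and the control group serves all 3 siRNAs. Reads of low genes and of genes with close copies limit single values, and poly(A) RNA does not measure tRNA output. The call of PDGFRA was lost with the length offset (-0.48, adjusted p = 0.111). That of UNC5C against siE6 was lost in a fit of only the libraries compared (0.108) and with the length offset (0.0824). Leaving out siE8 replicate 2 (0.0777), siE8 replicate 3 (0.126) or siE6 replicate 3 (0.122) lost it too. The call of NBEA against siE6 was also lost with DESeq2 (0.066) and with only the libraries compared (0.098). Leaving out replicate 1 or 3 of siE8 (0.126, 0.139) or of siE6 (0.168, 0.0825) lost it as well.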

Other observations

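Among p53 targets, 11 of 25 rose and 8 fell (median 0.174). ZMAT3, an RNA-binding p53 target, went from 61.6, 59.8 and 69.2 CPM to 23.5, 21.5 and 20.7 CPM (log2 -1.54 ± 0.064, edgeR adjusted p = 4.04e-10), and the death receptor TNFRSF10B and CCNG1 fell by 0.88 ± 0.042 and 0.80 ± 0.049 on the log2 scale. ZMAT3 was at 146 to 159 CPM with siE6, and p53 targets were lower than with siE6 for 16 of the 25 and higher for 4, against 32.1% of all genes in each direction. In the BCL2 family 5 of 18 rose and 6 fell (median -0.007). MCL1, which blocks apoptosis, rose from 101, 101 and 102 CPM to 269, 287 and 287 CPM (log2 1.47 ± 0.036), with 286 to 294 CPM in the siE4 and 363 to 375 CPM in the siE6 libraries, and BAX, which promotes it, rose by log2 0.71 ± 0.065.

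Lysosome and autophagy genes fell in 17 of 34 cases and rose in 3 (median -0.15). Glycolysis and hypoxia genes rose in 6 of 32 cases and fell in 15 (median -0.183), with the collagen hydroxylase gene P4HA2 among the falls (log2 -1.25 ± 0.074). Interferon-induced and RNA-sensing genes fell in 12 of 32 cases and rose in 4 (median -0.171), with IFIT1 at 15.7, 14.2 and 14.7 CPM in the control libraries and 7.78, 7.38 and 7.82 CPM with siE8. Sterol genes were at 11 higher and 7 lower of 24 (median 0.09), with the sterol carrier STARD4, whose 3′ UTR holds GCTATCT, at 80.1 to 86.0 CPM with control and 26.6 to 30.6 CPM with siE8. The unfolded protein response list stood at 8 higher and 7 lower of 23, and SEC61B, of the translocon, fell by 1.08 ± 0.067 on the log2 scale and fell further with siE6 (12.7 to 13.6 CPM against 26.2 to 30.1 with siE8).

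Among the other lists, ribosome biogenesis genes were at 22 higher and 8 lower of 48 (median 0.18), with the helicase DDX10 at log2 1.2 ± 0.041. Nuclear oxidative phosphorylation genes were at 16 higher and 7 lower of 48, splicing and 3′ end processing genes at 13 higher and 7 lower of 37, and immediate early genes at 14 higher and 15 lower of 36. NRF2 targets were at 8 higher and 6 lower of 27, and the Argonaute and microRNA machinery at 8 higher and 9 lower of 25. SDHC, a succinate dehydrogenase subunit with 2 copies of GCTATCT in its 3′ UTR, was at 174, 185 and 183 CPM with control and 92.3, 96.4 and 96.6 CPM with siE8 (log2 -0.92 ± 0.042), whereas the SDHD subunit of the same complex rose by log2 0.41 ± 0.039. CPSF2, of 3′ end processing, fell by 1.31 ± 0.046 on the log2 scale, and SRSF11, a splicing factor whose 3′ UTR holds the word, by 1.13 ± 0.047.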
